A study of Mus musculus with 6 samples.

Results

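The 10 genes described here are those of 8 small calcium-binding proteins, S100a1, S100a4, S100a6, S100a8, S100a9, S100a10, S100a11 and S100a13, and of Anxa1 and Anxa2, the annexins that bind some of them. They were chosen by name, as family members and binding partners, with earlier results of these data known. All 10 were among the 16656 genes tested, of 29374 genes with any estimated read, and each had at least 658 estimated reads in every library. Each gene's level is the sum of the values of its transcripts.

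RNA was sequenced from CD11b+Gr1+ splenocytes of mice that carried the leukemogenic Mll-AF9 fusion and were either proficient (Rpl22+/+) or deficient (Rpl22-/-) for Rpl22, a protein of the large ribosomal subunit. All 6 libraries, 3 per genotype, thus share the fusion, the spleen as source and the flow cytometry gate on CD11b and Gr1, a pair of surface markers that normal myeloid cells carry as well. The labels give no age or sex, and the study names 1 mouse per genotype for its leukemia explants, so it is not known here whether separate animals gave the libraries of a genotype. The p-values measure the spread between libraries, which may be technical. The libraries held 35828500 to 102866127 estimated reads, the fewest in Rpl22-/- replicate 1. Rpl22 itself was at 148, 235 and 152 CPM (reads scaled to a common library total) in Rpl22+/+ and at 58.3, 89.9 and 73.5 CPM in Rpl22-/- (log2 fold change -1.27 ± 0.25 SE, adjusted p = 0.0106, edgeR) and was thus lower in every Rpl22-/- library, though its reads were not absent there. Which part of the gene was deleted was not examined, so these sums check the direction of the labels only. Across 13202 genes, Rpl22+/+ replicate 2 stood apart from replicates 1 and 3 of its genotype (r = 0.926 and 0.934, against 0.992 between those), and the log2 fold change of each of the 10 genes is also given without it. In bulk RNA, fewer cells of a type cannot be told apart from less RNA per cell.

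S100 proteins are small EF-hand proteins that change shape on binding calcium and then dock onto partner proteins, and several of them are exported without a signal peptide and act on cell-surface receptors. Annexins bind acidic phospholipids when calcium rises, and some are brought together in pairs by an S100 dimer that bridges membranes or holds a complex at the cell surface. In myeloid cells S100a8 and S100a9 form calprotectin, the main cytosolic protein complex of neutrophils, while Anxa1 is a ligand of formyl peptide receptors that restrains neutrophil recruitment.

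Promoter sequence is shown for 5 of the genes because of their places in these data: S100a4 passed as lower in Rpl22-/- while the nearby S100a6 did not pass, Anxa1 passed while Anxa2 did not, and S100a8 was the second most abundant gene. RefSeq sequences were matched for 9 of the 10 genes, S100a10 being the exception. Each line gives the 150 bases before the annotated start, 5′ to 3′ on the transcript strand, on GRCm38.p6. Capitals mark the letters of 4 motifs that were searched: TTGCNNAA (C/EBP), GAGGAA (PU.1) and TGANTCA (AP-1) on both strands, and TATAAA on the transcript strand.
S100a4 (chr3:90603620-90603769, plus strand): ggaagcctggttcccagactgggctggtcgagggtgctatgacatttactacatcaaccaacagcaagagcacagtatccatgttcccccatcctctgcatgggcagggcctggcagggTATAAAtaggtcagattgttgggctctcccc
S100a6 (chr3:90612744-90612893, plus strand): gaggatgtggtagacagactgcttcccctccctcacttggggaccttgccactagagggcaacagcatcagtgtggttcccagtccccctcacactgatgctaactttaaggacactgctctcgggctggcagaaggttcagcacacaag
S100a8 (chr3:90668921-90669070, plus strand): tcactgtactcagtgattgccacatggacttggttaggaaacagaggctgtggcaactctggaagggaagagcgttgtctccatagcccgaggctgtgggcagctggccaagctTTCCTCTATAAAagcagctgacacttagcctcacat
Anxa1 (chr19:20390672-20390821, minus strand): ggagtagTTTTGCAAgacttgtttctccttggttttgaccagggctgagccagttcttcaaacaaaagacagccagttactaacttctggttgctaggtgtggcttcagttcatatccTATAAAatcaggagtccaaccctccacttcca
Anxa2 (chr9:69453533-69453682, plus strand): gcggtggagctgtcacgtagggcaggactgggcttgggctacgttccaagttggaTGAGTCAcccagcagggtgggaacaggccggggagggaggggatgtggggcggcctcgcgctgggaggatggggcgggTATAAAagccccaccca

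Matches were counted in the 250 bases before the start, and the share of all 32851 RefSeq promoters with a match in that window is given beside each motif. TATAAA, in 7.59% of promoters, was found 31 bases before the start of S100a4, 30 before that of S100a8, 32 before that of Anxa1 and 17 before that of Anxa2. The PU.1 letters, in 23.3% of promoters, were found in S100a8 at 170 and 36 bases, in S100a11 at 153 and in Anxa1 at 227. The C/EBP letters, in 9.56%, were found in S100a9 at 236 bases and in Anxa1 at 143, and those of AP-1, in 6.75%, in S100a11 at 136 and 38 and in Anxa2 at 95. None of the 4 was found in the windows of S100a1, S100a6 and S100a13, which says only that those letters are not there. The start used by RefSeq differs from that of the most read GENCODE transcript by 1 base in S100a4. The most read transcript starts upstream of the RefSeq start by 63 bases in Anxa2, 93 in S100a8 and 273 in Anxa1. The TATAAA of Anxa2, the TATAAA and the nearer PU.1 match of S100a8 and the whole printed window of Anxa1 therefore lie inside the transcription unit of the most read transcript.

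Of the 10 genes, 1 was higher (S100a1) and 4 were lower (S100a4, S100a10, S100a11 and Anxa1) in Rpl22-/- at an adjusted p under 0.05, and 5 did not pass (S100a6, S100a8, S100a9, S100a13 and Anxa2). Of all genes tested, 13.7% passed as higher, 13.8% as lower and 27.6% in either direction. That even split, 2288 genes higher and 2306 lower, depended on the scaling. It was 3543 and 2222 without a composition factor and 2286 and 2580 with DESeq2 size factors. On log2(TPM + 1), where the unit and the test (limma) differ as well, it was 3219 and 2137. In 3 of the 5 (S100a4, S100a10 and Anxa1) the log2 fold change exceeded 1 in size as well, which 17.5% of all genes did. The groups did not overlap in 6 of the 10 (those 5 and S100a9), and 46.1% of all genes had groups that did not overlap. The median log2 fold change of the 10 was -0.32, beside 0.07 over all genes. Within each of the pairs S100a10 and Anxa2, S100a4 and S100a6, and S100a1 and S100a13, 1 gene passed and the other did not. In the partner pairs S100a8 and S100a9 and S100a11 and Anxa1 the calls were alike, neither gene passing in the former and both passing as lower in the latter.

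**Figure D1:**
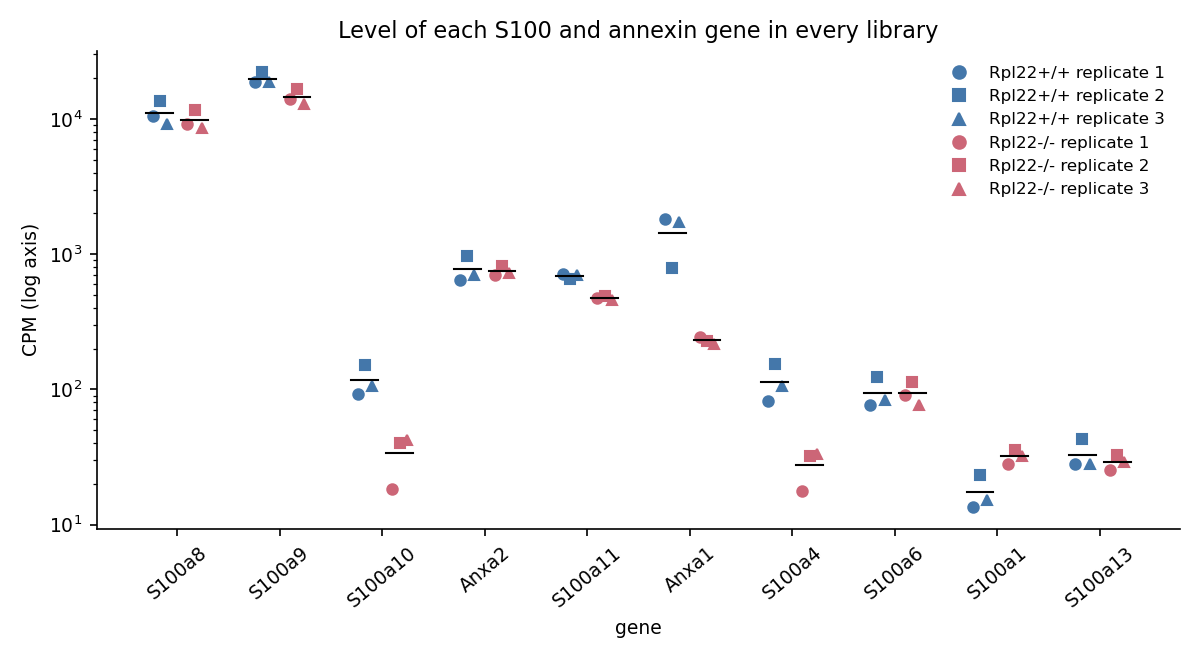
CPM of the 10 genes (log axis) in the 3 Rpl22+/+ (blue) and 3 Rpl22-/- (red) libraries, with circles, squares and triangles for replicates 1, 2 and 3 and a black line at each group mean. The Rpl22-/- points lie below all Rpl22+/+ points for S100a9, S100a10, S100a11, Anxa1 and S100a4, and above them for S100a1, while the groups overlap for the other 4.

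**Figure D2:**
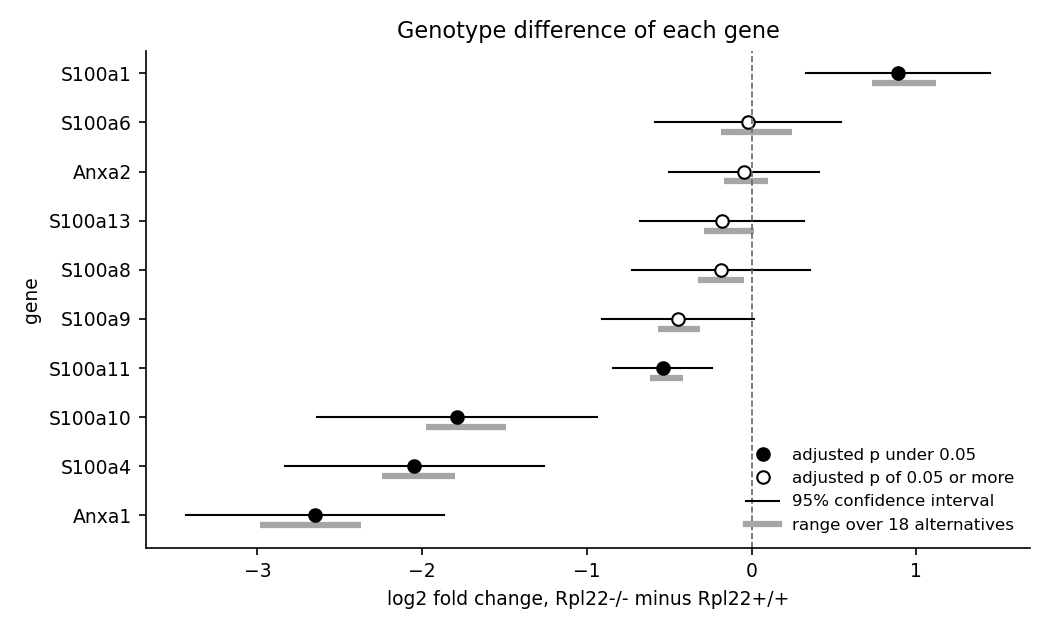
Log2 fold change of each gene (Rpl22-/- minus Rpl22+/+) with its 95% confidence interval (black line) and the range of the estimate over 18 alternative analyses (gray bar); filled points passed an adjusted p of 0.05 in edgeR. S100a4, S100a10 and Anxa1 stay at or below -1.49 in every alternative run, S100a1 at or above 0.73, and the gray bars of S100a6, S100a13 and Anxa2 cross 0.

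S100a9 and S100a8 (chromosome 3, GRCm39 90599939 to 90603028 on the minus strand and 90576285 to 90577342 on the plus strand) encode the subunits of calprotectin, which binds zinc and manganese and signals through Tlr4 and Ager once released. They had the highest and the second highest mean TPM (a level per transcript length, scaled to the same total in each library) of all genes tested, in both genotypes. S100a9 was at 18783, 22024 and 18723 CPM in Rpl22+/+ and at 14130, 16662 and 12911 CPM in Rpl22-/-. The highest Rpl22-/- library was thus below the lowest Rpl22+/+ library. The change did not pass, with a log2 fold change of -0.45 ± 0.19 (SE; 95% interval -0.91 to 0.01, adjusted p = 0.138, edgeR), and -0.41 without Rpl22+/+ replicate 2. S100a8 was at 10511, 13620 and 9154 CPM in Rpl22+/+ and at 9236, 11542 and 8512 CPM in Rpl22-/-, and the groups overlapped. Its log2 fold change was -0.18 ± 0.23 (95% interval -0.72 to 0.36, adjusted p = 0.611, edgeR). It depended on single libraries, at -0.05 without Rpl22+/+ replicate 2 and -0.31 without replicate 3, and at -0.33 without Rpl22-/- replicate 2 and -0.09 without replicate 3.

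Because calprotectin transcripts are short and abundant, their weight in the transcript pool depends on the unit. S100a8 and S100a9 together held 11.8%, 11.2% and 11.3% of all TPM in Rpl22+/+ and 9.58%, 10.3% and 8.54% in Rpl22-/-, and these shares did not overlap. Of the estimated reads they held 2.93%, 2.98% and 2.74% in Rpl22+/+ and 2.44%, 2.83% and 2.21% in Rpl22-/-, and these shares overlapped (exact two-sided permutation p = 0.2). That share and the CPM of both genes were lower in Rpl22-/- within each of the 3 replicate numbers, but the labels do not say what the numbers stand for. In deviations from the group means, Rpl22+/+ replicate 3 correlated more with Rpl22-/- replicate 1 (0.43) than with its own number (0.13). Between those 2 libraries S100a8 was not lower in Rpl22-/- (9154 CPM in Rpl22+/+ and 9236 CPM in Rpl22-/-). With the replicate number as a block, neither S100a8 nor S100a9 passed (adjusted p = 0.446 and 0.0958, edgeR). All 10 genes together held 12.4%, 11.6% and 11.9% of all TPM in Rpl22+/+ and 9.93%, 10.6% and 8.88% in Rpl22-/-. The Rpl22-/- share was below every Rpl22+/+ share (9.82% ± 0.879 against 12.0% ± 0.412, SD, n = 3 each, exact two-sided permutation p = 0.1). That is the smallest p that 3 libraries against 3 can give. The TPM of the other 8 genes summed to 4561 to 6166 in Rpl22+/+ and 3404 to 3537 in Rpl22-/-.

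S100a10 (chromosome 3, 93462387 to 93471950), an S100 protein that no longer binds calcium and recruits Anxa2 into a complex that activates plasminogen at the cell surface, fell by 1.79 on the log2 scale. Its level was 92.1, 153 and 106 CPM in Rpl22+/+ and 18.5, 40.5 and 42.5 CPM in Rpl22-/-. The lowest Rpl22+/+ library was above the highest Rpl22-/- library, and Rpl22-/- replicate 1, the library with the fewest reads, was the lowest of all. This 3.45-fold lower level (log2 fold change -1.79 ± 0.36 SE, adjusted p = 0.0117, edgeR) passed, and the log2 fold change was -1.49 without Rpl22-/- replicate 1. Without Rpl22+/+ replicate 2 it was -1.58 (adjusted p = 0.0129, edgeR).

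Anxa2 (chromosome 9, 69360902 to 69399077), the annexin of that complex, did not pass. It was at 648, 966 and 706 CPM in Rpl22+/+ and at 707, 816 and 720 CPM in Rpl22-/-. The Rpl22-/- libraries lay within the range of the Rpl22+/+ libraries. The log2 fold change was -0.05 ± 0.19 (95% interval -0.50 to 0.41, adjusted p = 0.885, edgeR), and its sign turned in 4 of 18 alternatives, among them scaling by library totals alone (0.10) and omission of Rpl22+/+ replicate 2 (0.10). In mean TPM, Anxa2 ranked 185 in Rpl22+/+ and 180 in Rpl22-/-, whereas S100a10 ranked 466 and 1608.

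S100a11 (chromosome 3, 93427795 to 93433594), a partner of the amino-terminal tail of Anxa1 that also takes part in membrane repair, fell by 0.54 on the log2 scale. It was at 708, 657 and 701 CPM in Rpl22+/+ and at 478, 486 and 457 CPM in Rpl22-/-. The spread within each group was small and the groups did not overlap. This 1.45-fold lower level passed (log2 fold change -0.54 ± 0.13 SE, adjusted p = 0.0210, edgeR), with a log2 fold change of -0.62 without Rpl22+/+ replicate 2. The call was lost on log2(TPM + 1) and log2(TPM + 0.1) (adjusted p = 0.0733 and 0.0655, limma), with a log2 fold change of -0.47 in both. It was also lost without Rpl22+/+ replicate 1 (adjusted p = 0.0748, edgeR) or 3 (0.0956) and without Rpl22-/- replicate 1 (0.0713), 2 (0.0511) or 3 (0.0946), with log2 fold changes of -0.58 to -0.51 in these 5 fits.

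Anxa1 (chromosome 19, 20350792 to 20368308), the annexin that acts on formyl peptide receptors to limit inflammation, showed the largest fall of the 10. It was at 1818, 796 and 1720 CPM in Rpl22+/+ and at 245, 229 and 217 CPM in Rpl22-/-. The Rpl22-/- libraries were close to each other, and the lowest Rpl22+/+ library, replicate 2, was still above all of them. Its level was 6.27-fold lower (log2 fold change -2.65 ± 0.33 SE, adjusted p = 0.00188, edgeR), and the log2 fold change was -2.99 without Rpl22+/+ replicate 2. In mean TPM, Anxa1 went from rank 101 in Rpl22+/+ to rank 595 in Rpl22-/-. Most of its reads (93.7% ± 4.25 and 91.6% ± 6.34, SD, n = 3 each) were assigned to the transcript Anxa1-201.

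The ratio of the transcripts of 2 genes in the same library does not depend on the scaling between libraries, so 3 ratios of binding partners were compared. S100a8 to S100a9 was 0.608, 0.672 and 0.533 in Rpl22+/+ and 0.708, 0.752 and 0.716 in Rpl22-/- (log2 difference 0.27). S100a10 to Anxa2 was 0.354, 0.395 and 0.379 in Rpl22+/+ and 0.0641, 0.124 and 0.148 in Rpl22-/- (log2 difference -1.83). S100a11 to Anxa1 was 1.64, 3.67 and 1.78 in Rpl22+/+ and 7.80, 9.09 and 7.85 in Rpl22-/- (log2 difference 1.90). In all 3 ratios the groups did not overlap, and each exact two-sided permutation p was 0.1, the smallest possible. Without Rpl22+/+ replicate 2, which had the highest S100a11 to Anxa1 ratio of its genotype, the log2 differences were 0.35, -1.79 and 2.27 in the same order. Transcripts of S100a10 were thus fewer per Anxa2 transcript in Rpl22-/-, and those of S100a11, whose own level was lower there, were more per Anxa1 transcript.

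**Figure D3:**
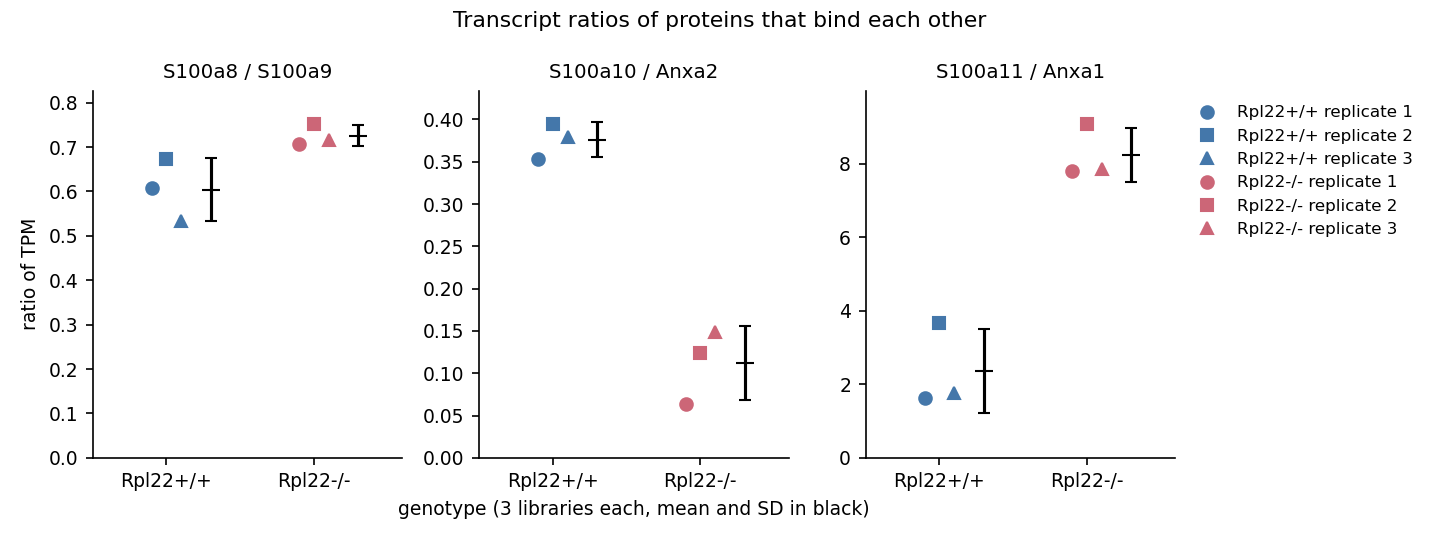
Ratio of TPM between partner genes in each library (vertical axes start at 0 and differ between panels), by genotype, with the mean and SD of 3 libraries in black. The S100a10 to Anxa2 ratio lies at 0.354 to 0.395 in Rpl22+/+ and at 0.0641 to 0.148 in Rpl22-/-, and the S100a11 to Anxa1 ratio at 1.64 to 3.67 and at 7.80 to 9.09.

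S100a4 and S100a6 lie close together on chromosome 3, with S100a5, which had too few reads to be tested, between them (90511078 to 90513352 and 90520189 to 90531488, both on the plus strand), and the former passed as lower while the latter did not pass. S100a4, which binds non-muscle myosin heavy chain and is linked to cell motility, was at 81.6, 154 and 106 CPM in Rpl22+/+ and at 17.6, 31.9 and 33.1 CPM in Rpl22-/-. Every Rpl22-/- library was below every Rpl22+/+ library, and replicate 1 was the lowest within each genotype. Its level was 4.13-fold lower (log2 fold change -2.05 ± 0.33 SE, 95% interval -2.83 to -1.26, adjusted p = 0.00525, edgeR), with a log2 fold change of -1.80 without Rpl22+/+ replicate 2. In mean TPM, S100a4 ranked 304 in Rpl22+/+ and 1214 in Rpl22-/-.

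S100a6, or calcyclin, which binds the ubiquitin ligase adaptor encoded by Cacybp, was at 76.9, 124 and 83.3 CPM in Rpl22+/+ and at 90.5, 113 and 76.4 CPM in Rpl22-/-. The groups overlapped and no genotype stood out. The log2 fold change was -0.02 ± 0.24 (95% interval -0.59 to 0.54, adjusted p = 0.960, edgeR), and its sign turned in 7 of 18 alternatives, up to 0.25 on log2(TPM + 0.1) and 0.18 without Rpl22+/+ replicate 2. Its interval did not overlap that of S100a4, but the difference between them was not tested.

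The sum hid a difference in the transcripts to which S100a6 reads were assigned. The 2 main coding transcripts, S100a6-201 and S100a6-203, hold the same coding blocks of 89 codons before the stop, and in the GENCODE annotation S100a6-203 starts 423 bases downstream of S100a6-201. The share of S100a6 reads assigned to S100a6-201 was 57.3%, 58.4% and 53.3% in Rpl22+/+ and 34.7%, 39.3% and 42.0% in Rpl22-/-. For S100a6-203 it was 41.2%, 40.8% and 45.9% in Rpl22+/+ and 60.4%, 57.6% and 55.7% in Rpl22-/-. Neither share overlapped between the genotypes. As the 2 transcripts held nearly all S100a6 reads, their shares mirrored each other and are not separate evidence. In CPM, the groups did not overlap in 46.1% of all genes, and no such rate is given here for transcript shares. The difference in S100a6 was singled out after the shares were seen. In TPM, S100a6-201 was at 104, 133 and 104 against 76.3, 95.1 and 74.6, and S100a6-203 at 145, 180 and 177 against 253, 269 and 192. A transcript with a retained intron, S100a6-202, took 0.57% to 1.36% of the reads in Rpl22+/+ and 2.20% to 4.73% in Rpl22-/-. These shares are estimates by Salmon for transcripts that share most of their sequence, and no test was run on them. The S100a6 promoter printed above ends 12 bases from the start of S100a6-201 and 411 bases before that of S100a6-203.

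**Figure D4:**
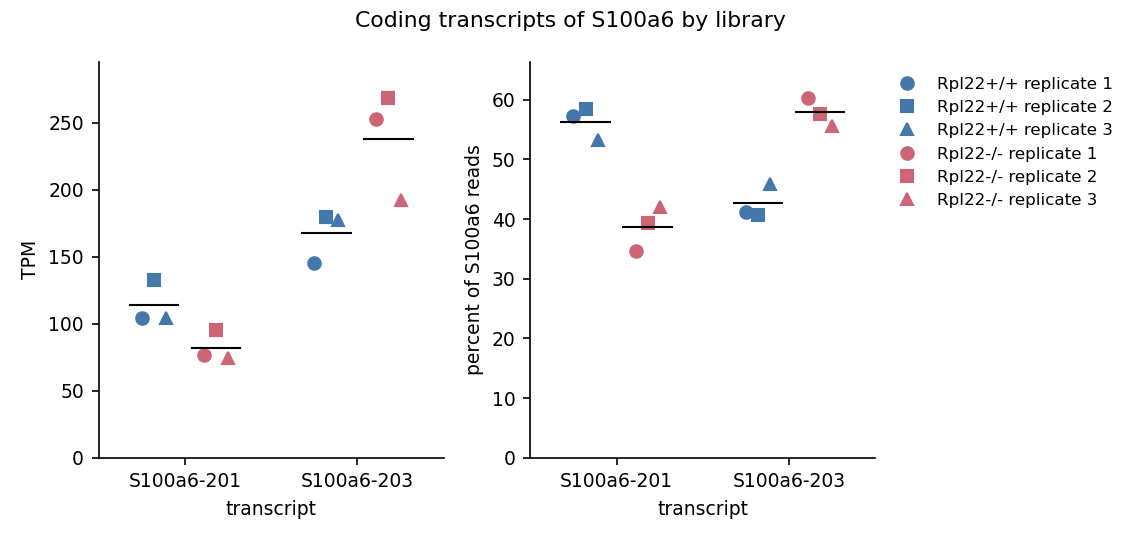
TPM (left) and percent of S100a6 reads (right) of the coding transcripts S100a6-201 and S100a6-203 in each library, with a black line at each group mean. S100a6-201 holds 53.3% to 58.4% of the reads in Rpl22+/+ and 34.7% to 42.0% in Rpl22-/-, and S100a6-203 shows the reverse order.

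In the other genes 1 transcript held most of the reads in both genotypes. S100a9-201 and S100a9-202 hold the same coding blocks of 113 codons and took 87.3% ± 0.30 and 12.7% ± 0.30 of S100a9 reads in Rpl22+/+ and 87.5% ± 0.03 and 12.5% ± 0.03 in Rpl22-/- (SD, n = 3 each). S100a4-201, S100a8-201, S100a10-201, S100a1-201 and Anxa2-201 each took 97.5% or more of their gene's reads as a group mean in both genotypes, and S100a11 and S100a13 had a single matched transcript. Deposited transcripts that the annotation does not hold were not counted in these shares.

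S100a1 and S100a13 lie head to head on chromosome 3 (90418341 to 90421699 on the minus strand and 90421659 to 90431890 on the plus strand), with 41 bases of overlap at their starts. Their RefSeq starts are 105 bases apart on GRCm38.p6, and 104 bases of their 150-base windows before the start are shared. S100a1, best known as a regulator of calcium handling in heart and skeletal muscle, was at 13.5, 23.3 and 15.1 CPM in Rpl22+/+ and at 28.0, 35.9 and 32.0 CPM in Rpl22-/-. All Rpl22-/- libraries were above all Rpl22+/+ libraries. S100a1, with a 1.85-fold higher level (log2 fold change 0.89 ± 0.23 SE, adjusted p = 0.0315, edgeR), was the only one of the 10 genes that passed as higher. The call was lost without Rpl22+/+ replicate 1 (adjusted p = 0.0973, edgeR) or 3 (0.120) and without Rpl22-/- replicate 1 (0.0630), 2 (0.0613) or 3 (0.0943). In these 5 fits the log2 fold change was 0.73 to 0.98, and it was 1.12 without Rpl22+/+ replicate 2.

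S100a13, which takes part in the export of proteins that lack a signal peptide, was at 28.1, 42.7 and 28.0 CPM in Rpl22+/+ and at 25.5, 32.7 and 29.1 CPM in Rpl22-/-, and the groups overlapped. The log2 fold change was -0.18 ± 0.21 (95% interval -0.68 to 0.32, adjusted p = 0.593, edgeR), and it was 0.01 without Rpl22+/+ replicate 2. In mean TPM S100a1 went from rank 3123 to rank 1668 and S100a13 from 1772 to 2006, so their order differed between the genotypes. The difference between the responses of S100a1 and S100a13 was not tested.

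The 8 S100 genes of chromosome 3 lie in a group of 6 that spans 185 kb, from S100a1 to S100a9, and a pair, S100a11 and S100a10, 2.82 Mb further on. From 500 kb before the first to 500 kb after the last of them, 21 other tested genes have a position in the authors' table. Of these, 5 were higher, 1 was lower and 15 did not pass, with a median log2 fold change of 0.08. Thus 28.6% passed, beside 27.6% of all genes, whose median was 0.07. The neighbors with the smallest p in each direction were Tchh, a hair follicle protein (log2 fold change 5.0 ± 0.61 SE, adjusted p = 0.00179, edgeR), Npr1, a natriuretic peptide receptor (4.63 ± 0.66, adjusted p = 0.00310), and Ilf2, an RNA-binding protein (0.62 ± 0.12, adjusted p = 0.0100), all higher, and Gatad2b, a subunit of the NuRD complex (-0.74 ± 0.15, adjusted p = 0.0129), lower. Npr1 had only 7 estimated reads over the Rpl22+/+ libraries, against 188 over the Rpl22-/- libraries. Within the S100 group, genes that fell, rose and did not pass thus stood side by side. Around Anxa2 on chromosome 9, 8 other tested genes within 1 Mb had a median log2 fold change of 0.26. Of these 8, 1 was higher and 7 did not pass (12.5% passing, beside 27.6% of all genes). The median of 659 genes of chromosome 9 with a mean of at least 50 counts was 0.34, against -0.04 for chromosome 3 and -0.02 for chromosome 19, where Anxa1 lies.

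**Figure D5:**
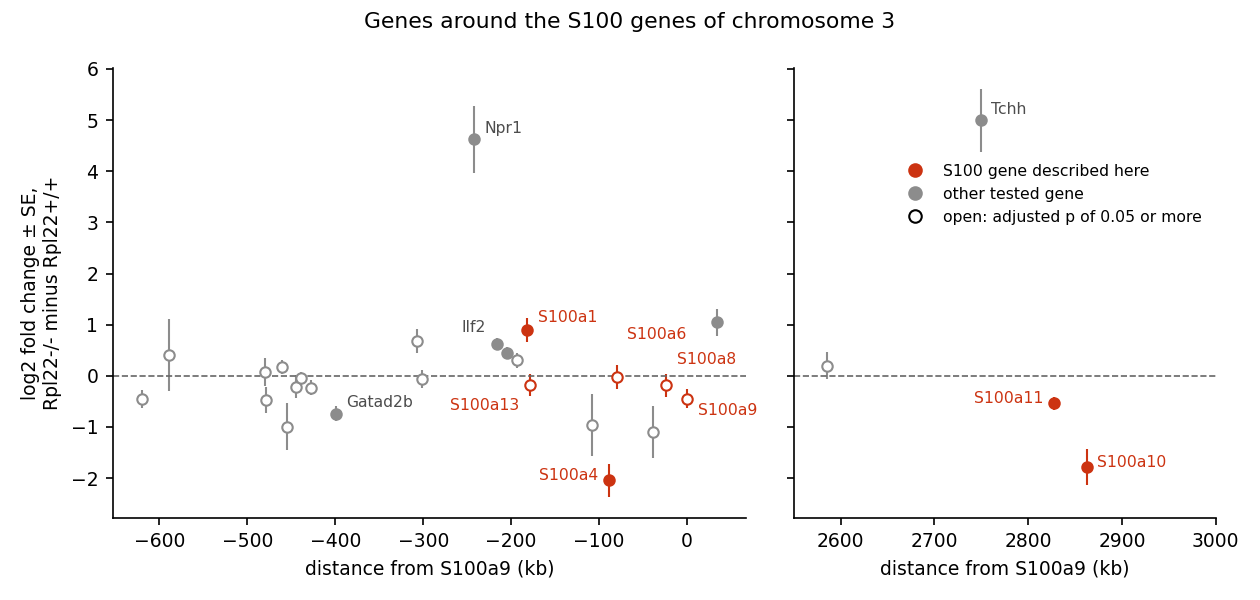
Log2 fold change ± SE (Rpl22-/- minus Rpl22+/+) of tested genes by distance from S100a9 in kb, in the stretches around the 6 S100 genes near S100a9 (left) and around S100a11 and S100a10 (right); the stretch between the panels is not drawn. The S100 genes (red) range from -2.05 (S100a4) to 0.89 (S100a1), and open points did not pass an adjusted p of 0.05.

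To see which genes had a profile like those of the calprotectin subunits and Anxa2, centered log2 CPM was compared over the 6 libraries, and likeness was taken as the root mean square difference. Nearest to S100a8 were Ppp1cc (0.062 log2 units), Kdelc2 (0.064) and Tmem165 (0.065). Nearest to S100a9 were Zxdb (0.045), Ehhadh (0.048) and Osbpl2 (0.055), and nearest to Anxa2 were Pctp (0.011), Gemin5 (0.016) and Gna15 (0.019). The 10 genes themselves were left out of that search. Among the 10, S100a13 and Anxa2 were the closest pair (0.095). S100a4 and S100a10, which both passed as lower, differed by 0.15 and the calprotectin subunits by 0.17. Other pairs lay closer than either, such as S100a8 and S100a13 (0.121) and S100a6 and Anxa2 (0.122).

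Other members of the S100 family were scarce in these cells. Of 9 further S100 genes, 2 had enough reads to be tested (S100a3 and S100a7a, with 57.0 and 59.3 estimated reads over the Rpl22+/+ libraries and 36.5 and 27.1 over the Rpl22-/- libraries). Neither passed, at log2 fold changes of -0.96 and -1.10 (adjusted p = 0.293 and 0.158, edgeR). These 2 genes, S100a5, and below the genes that did not pass, Ctsc and the named markers of monocytes and macrophages were singled out after their values were seen.

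Annexins other than Anxa1 and Anxa2 were mostly lower in Rpl22-/-. Of 10 listed, 8 were tested, 6 passed as lower, 1 as higher and 1 did not pass, with a median log2 fold change of -0.78. Anxa11, which tethers RNA granules to lysosomes, fell from 581 ± 113 to 222 ± 12.1 CPM (SD, n = 3 each), with a log2 fold change of -1.39 and an adjusted p of 0.00203 in edgeR. Anxa6 fell from 269 ± 75.9 to 109 ± 19.6 CPM (-1.30, adjusted p = 0.00902) and Anxa8 from 8.56 ± 1.74 to 4.47 ± 1.17 CPM (-0.94, adjusted p = 0.0350). Anxa9 rose from 4.23 ± 0.126 to 11.4 ± 1.22 CPM (1.43, adjusted p = 0.00116). Anxa5, which did not pass, was at 239 ± 50.2 and 162 ± 14.9 CPM (-0.56, adjusted p = 0.0658). Anxa2 thus lay above the median of the other annexins, a difference that was not tested.

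Among 8 genes for receptors of released S100 proteins and Anxa1 and their adaptors, 3 passed as lower, 1 as higher and 4 did not pass, with a median log2 fold change of -0.09. Both formyl peptide receptors on which Anxa1 acts were lower. Fpr2 fell from 268 ± 24.2 to 112 ± 22.1 CPM (SD, n = 3 each), with a log2 fold change of -1.26 and an adjusted p of 0.00351 in edgeR, and Fpr1 from 88.2 ± 10.4 to 38.7 ± 13.4 CPM (-1.19, adjusted p = 0.0185). The genes of the lipopolysaccharide receptor that calprotectin also engages moved in opposite directions: Tlr4 rose from 20.1 ± 5.70 to 44.0 ± 11.5 CPM (1.13, adjusted p = 0.0258) and its partner Ly96 fell from 2.65 ± 0.70 to 1.26 ± 0.28 CPM (-1.07, adjusted p = 0.0424). Ager, the receptor for advanced glycation end products, was at 7.30 ± 1.21 and 6.54 ± 1.47 CPM and did not pass (-0.16, adjusted p = 0.661).

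Of 8 genes for intracellular partners and co-factors, 2 passed as lower, 1 as higher and 5 did not pass, with a median log2 fold change of -0.29. Plaur, the urokinase receptor that acts beside S100a10 in plasminogen activation, fell from 273 ± 51.5 to 65.4 ± 6.89 CPM (SD, n = 3 each), with a log2 fold change of -2.06 and an adjusted p of 0.00055 in edgeR. Myh9, the non-muscle myosin heavy chain that S100a4 binds, fell from 2898 ± 471 to 1486 ± 3.42 CPM (-0.96, adjusted p = 0.00739). Dysf, a membrane repair protein that binds annexins, rose from 0.114 ± 0.020 to 0.375 ± 0.046 CPM (1.69, adjusted p = 0.0147), on 25.0 and 88.0 estimated reads per genotype. Cacybp, the partner of S100a6, was at 41.4 ± 8.11 and 61.0 ± 5.66 CPM and did not pass (0.56, adjusted p = 0.0604). Ahnak, a large scaffold that binds the S100a10 and Anxa2 complex, was at 682, 97.9 and 623 CPM in Rpl22+/+ and at 301, 191 and 447 CPM in Rpl22-/- and did not pass (-0.58 ± 0.68 SE, adjusted p = 0.590). The groups overlapped through Rpl22+/+ replicate 2 alone, and without it Ahnak passed as lower (-1.11, adjusted p = 0.0300, edgeR), as did Plgrkt, a plasminogen receptor (-0.76, adjusted p = 0.00539), which made 4 genes of this list lower. Over all lists and markers, 7 genes that had not passed did so without that library, among them Bsg (0.80) and Cebpa (1.12), and 0 calls were lost.

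Calprotectin is a product of maturing granulocytes, so granule genes and regulators were set beside it. Of 7 primary granule genes, 5 passed as higher, 1 as lower and 1 did not pass, with a median log2 fold change of 2.86. Elane (log2 fold change 3.48), Mpo (2.99), Ctsg (2.87) and Prtn3 (2.86) rose most, and Ctsc, the protease that activates several of them, was the one that fell (-1.60). Of 12 secondary and tertiary granule genes, 10 passed as lower and 2 did not pass, with a median of -1.50. Mmp25 (-7.32), Retnlg (-4.09), Mmp8 (-3.79) and Mmp9 (-3.36) fell most. S100a8 and S100a9 lay nearer to 0 than either median. Of 7 regulators, Myb passed as higher (178 ± 36.7 against 476 ± 117 CPM, with an adjusted p of 0.00621 in edgeR at a log2 fold change of 1.42) and 6 did not pass, among them Cebpe (-0.02) and Spi1, which encodes PU.1 (-0.47, adjusted p = 0.183).

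Markers of the sorted population were present in every library, with a summed level over 6 genes of 3493 to 3892 TPM in Rpl22+/+ and 3707 to 4314 TPM in Rpl22-/-. Itgb2 and Csf3r are in that sum but were not part of the gate. Within that sum the genes differed. Ly6g, part of the Gr1 epitope, was at 259, 236 and 252 TPM against 27.8, 24.4 and 18.8 TPM, Itgam, which encodes CD11b, at 562, 491 and 558 against 328, 271 and 245 TPM, and Ly6c2, the other Gr1 antigen, at 1677, 2171 and 1862 against 2631, 3302 and 2767 TPM. Itgb2 was lower as well (log2 fold change -1.44), and Csf3r (0.47), Ly6c1 (0.40) and Ly6c2 (0.51) did not pass; without Rpl22+/+ replicate 2, Csf3r and Ly6c2 passed as higher (0.46 and 0.73).

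Some markers of other cells also differed between the genotypes. Summed over 7 monocyte and macrophage genes, the level was 475 to 558 TPM in Rpl22+/+ and 224 to 313 TPM in Rpl22-/-, but its genes did not move together: Csf1r, Adgre1 and Ccr2 passed as lower (log2 fold changes -1.08, -1.31 and -1.42), Cd68 did not pass, and the macrophage complement genes C1qa, C1qb and C1qc passed as higher (1.27, 1.12 and 1.22). Over 4 T cell genes, all of which passed as lower, the sum was 46.8 to 55.4 and 14.8 to 19.3 TPM. Over 6 erythroid genes, all of which passed as higher, it was 248 to 285 TPM in Rpl22+/+ and 1673 to 3057 TPM in Rpl22-/-. The sum over 4 B cell genes overlapped between the genotypes (363 to 465 and 266 to 369 TPM), and none of them passed in edgeR (adjusted p = 0.157 to 0.350). Over 5 eosinophil and basophil genes it was 24.5 to 35.5 and 18.6 to 21.7 TPM, with 2 genes lower and 3 that did not pass. Platelet and stroma genes stayed at or under 5.17 TPM per list. No defining marker was at 0 in all 6 libraries. A gate on CD11b and Gr1 would remove most T cells, B cells and erythroid cells. Monocytes and T cells also express S100a4, S100a10, S100a11 and Anxa1, and the part of either in the lower levels was not tested.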

How the data were processed

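Transcripts were quantified by the authors with Salmon after trimming with Trimmomatic. For each library the authors deposited estimated counts and TPM per transcript. The labels name the GRCm39 build; tool versions and the transcript set are not given in the sources used here. A table of the whole series, also deposited, gives a base mean signal (counts divided by size factors) and positions per gene, which were used, and the authors' own fold changes, p-values and adjusted p-values, which were not. It holds 0 columns of other samples.

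Values of transcripts were added up per gene by their GENCODE vM21 assignment, which held 136036 of 276623 deposited transcripts (49.2%) and covered 98.0% to 98.1% of the reads of each library, and gene sums were rounded. For the 10 genes the size-factor mean was 0.896 (S100a13) to 0.996 (Anxa1) times the authors' base mean. Genotypes were compared over all 16656 genes left by filterByExpr in edgeR 4.0.16 (R 4.3.3) with glmQLFit and glmQLFTest (TMM scaling, genotype as the only term, Benjamini-Hochberg adjustment). CPM are on TMM-scaled library sizes, the SE follows from the test's F value, and 95% intervals follow from the SE. Ratios and shares were compared by exact two-sided permutation. Library pairs differed by more than sampling noise (chi-square of counts per degree of freedom 21.0 to 528), so none was merged.

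Libraries of the 2 genotypes share replicate numbers. Over 13202 genes, deviations from the group means correlated at 0.57, 0.71 and 0.13 between libraries of the same number, and the numbers were therefore treated as pairing them in an alternative with a replicate block. The labels do not say what the numbers stand for, and Rpl22+/+ replicate 3 correlated more with Rpl22-/- replicate 1 (0.43) than with its own number.

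The alternatives were DESeq2 1.42.0 size factors or its test, no composition factor, no count filter or a mean of at least 50 counts, limma 3.58.1 (voom, log2(TPM + 1), log2(TPM + 0.1), and a correction for GC content by a lowess curve), the replicate block with and without that correction, and omission of each library. Leaving S100a8 and S100a9 out of the scaling, and refitting the gene lists without Rpl22+/+ replicate 2, were chosen after seeing the data. The test was also run on 3 sets of simulated counts with 200 changed genes each, drawn without an outlying library. Its error rates there are not given here, and no conclusion on its reliability is drawn from them.

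The members, gene lists and tests were chosen with earlier results of these data known. Named genes are the 10 members, from each list up to 4 that passed with the largest change, up to 3 neighbors per direction with the smallest p, the 3 genes nearest in profile to S100a8, S100a9 and Anxa2, Rpl22 and the markers of the sorted population. Genes named outside this rule, such as those of the monocyte and macrophage list, were chosen after their values were seen. Promoter sequences are from RefSeq (GRCm38.p6). Figures were drawn with matplotlib 3.10.9.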

Additional observations from a re-analysis of the deposited data

How the results depend on the processing

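S100a4, S100a10 and Anxa1 passed in each of 18 alternatives, S100a1 in 13 and S100a11 in 11, and S100a6, S100a8, S100a9, S100a13 and Anxa2 in none of them. The sign turned in 12 of 180 values, all of genes that did not pass. For S100a6 these were no composition factor (0.13), no count filter (0.0128), log2(TPM + 1) and log2(TPM + 0.1) (0.25 each), and omission of Rpl22+/+ replicate 2 (0.18) or of Rpl22-/- replicate 1 (0.0032) or 3 (0.11). For Anxa2 they were no composition factor (0.10), log2(TPM + 1) and log2(TPM + 0.1) (0.0630 and 0.0631) and omission of Rpl22+/+ replicate 2 (0.10), and for S100a13 the last of these (0.0126). The cause was not tested, but no composition factor moved the median of all genes from 0.07 to 0.19. With each library left out in turn, values ran from -0.19 to 0.18 for S100a6, -0.17 to 0.10 for Anxa2, -0.29 to 0.0126 for S100a13 and -0.33 to -0.05 for S100a8, and 0 to 1 genes passed as higher and 3 to 4 as lower; edgeR then had 5 libraries. The share of all genes that passed, 27.6% with 6 libraries, was 40% without Rpl22+/+ replicate 2, where 1 of the 10 was higher and 4 were lower. It was 17.9% and 15.1% without Rpl22+/+ replicates 1 and 3 and 17.5%, 20.5% and 16.4% without Rpl22-/- replicates 1, 2 and 3, where 0 were higher and 3 lower. The replicate block changed no call (S100a1 0.92, adjusted p = 0.00739; S100a11 -0.54, adjusted p = 0.0273, edgeR). The ratios and the share of TPM moved by less than 1 SD under every alternative run, and 3 libraries per genotype limit their p-values to 0.1.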
